A study of Arabidopsis thaliana with 4 samples.

Results

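The chloroplast genes psbE, psbF, psbL and psbJ lie next to each other in the plastid genome and are read as a single transcription unit. Their signals were read on Affymetrix ATH1 arrays from RNA of Arabidopsis thaliana shoots, the aerial parts of seedlings 2 weeks old. aln-1, which carries a mutant allele of ALN (allantoinase) in the Col-0 genetic background and accumulates allantoin, had 2 arrays and was set against wild type Col-0 with 2 arrays. Seedlings of both genotypes were raised aseptically on solid MS-based medium with sucrose in long days, and per the labels the arrays of a genotype are independent biological replicates. The genes were chosen from the array annotation by name, and the choice was made with their aln-1 to Col-0 differences known, so these differences are given below as a description and without a test. Each of the 4 genes had 1 probe set of its own, 244964_at for psbE, 244963_at for psbF, 245022_at for psbL and 245021_at for psbJ. They are 4 of 76 plastid genes on the array, which have 77 probe sets, among 22746 probe sets in all.

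Photosystem II is the complex of the thylakoid membrane that takes electrons from water in the light. psbE and psbF encode the alpha and beta subunits of cytochrome b559, a haem protein at the core of the complex without which photosystem II does not accumulate. psbL and psbJ encode small membrane-spanning subunits that are needed for stable assembly and for electron flow through the quinones. In land plants the 4 genes are co-transcribed in the order psbE, psbF, psbL, psbJ. Their probe sets can therefore read parts of the same RNA molecules and are not taken as independent measurements. The neighbouring gene petL is transcribed in the opposite direction and heads a different unit.

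All values are log2 signals relative to the row median, the middle of the 4 array values of that probe set, so that a value above 0 means an array above the middle of the 4. They show how arrays compare for 1 gene and cannot be used to compare levels between genes. A difference is the mean of the aln-1 arrays minus the mean of the Col-0 arrays, and its standard error (SE) comes from the limma fit over all probe sets. The rounding steps of the deposited numbers place the signals of all 4 operon probe sets at 256 or above, if the logarithms are to base 2, and 73 of the 77 plastid probe sets fall in the same class. This class is approximate. As the RNA came from whole aerial parts, fewer cells, fewer plastids or less RNA per plastid cannot be told apart in any value below. Plastid signals also depend on how the RNA was primed for labelling, as described with the processing.

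The whole operon was higher in aln-1. Over the 4 genes, the difference was between 0.42 and 0.66 on the log2 scale with a median of 0.49, while the median over all 77 plastid probe sets was -0.34. For each of the 4 genes, both aln-1 arrays lay above both Col-0 arrays. That separation was seen in 25.2% of all probe sets, and in 2 of the 73 other plastid probe sets. In the opposite direction, 43 of those 73 had both aln-1 arrays below both Col-0 arrays, against 34.9% of all probe sets.

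psbE, the gene of the alpha subunit of cytochrome b559, was at 0.40 and 0.30 on the aln-1 arrays, against -0.30 and -0.32 on the Col-0 arrays. The 2 Col-0 values were almost equal and the genotypes were far from overlapping, with a gap of 0.60 between the lowest aln-1 and the highest Col-0 value. The means were 0.35 ± 0.071 in aln-1 and -0.31 ± 0.013 in Col-0 (SD, n = 2 each), which gives a difference of 0.66 (SE 0.13), or 1.58-fold.

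psbF, the gene of the beta subunit, was at 0.22 and 0.20 on the aln-1 arrays, against -0.20 and -0.36 on the Col-0 arrays. Here the aln-1 arrays were the tight pair. The means were 0.21 ± 0.011 in aln-1 and -0.28 ± 0.11 in Col-0 (SD, n = 2 each), and the difference was 0.49 (SE 0.14), or 1.41-fold.

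psbL was at 0.32 and 0.12 on the aln-1 arrays, against -0.29 and -0.12 on the Col-0 arrays. It had the widest spread within each genotype among the 4 genes, and the gap between the genotypes was the smallest, at 0.24. The means were 0.22 ± 0.15 in aln-1 and -0.20 ± 0.12 in Col-0 (SD, n = 2 each), and the difference was 0.42 (SE 0.16), or 1.34-fold.

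psbJ was at 0.19 and 0.28 on the aln-1 arrays, against -0.19 and -0.31 on the Col-0 arrays. Replicate 2 was the higher aln-1 array for psbJ, whereas replicate 1 was the higher one for the other 3 genes. The means were 0.24 ± 0.061 in aln-1 and -0.25 ± 0.085 in Col-0 (SD, n = 2 each), and the difference was 0.49 (SE 0.14), or 1.41-fold.

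**Figure D1:**
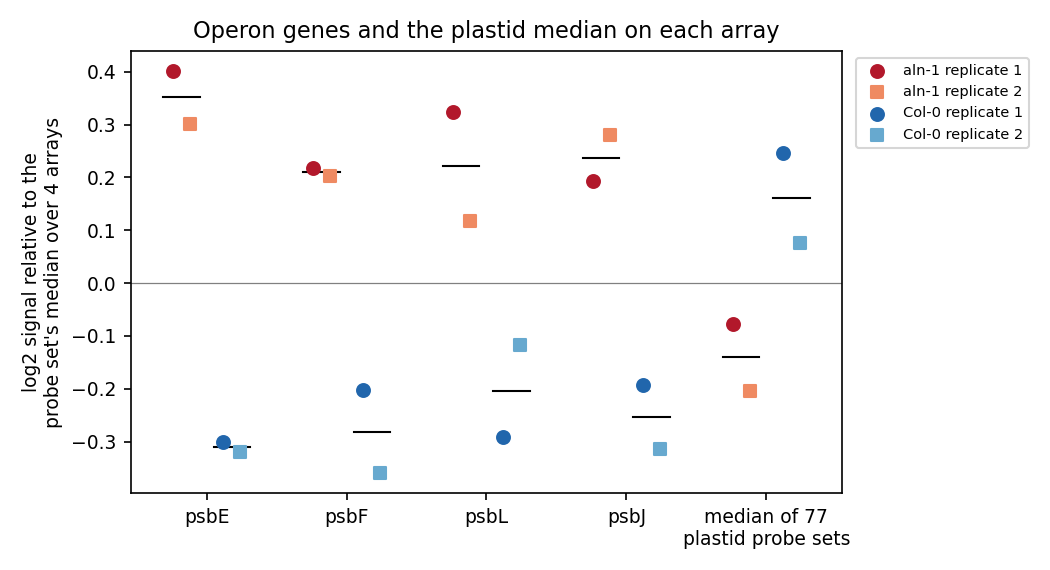
Log2 signal relative to the probe set's own 4-array median for psbE, psbF, psbL and psbJ, and the median of 77 plastid probe sets on the same arrays. Each point is 1 array, aln-1 in reds left of Col-0 in blues, and bars are genotype means; the operon genes lie above 0 in aln-1 and below 0 in Col-0, and the plastid median lies the other way round.

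These differences are modest within the whole array. The psbE difference exceeded that of 83.4% of all 22746 probe sets, and the psbL difference, the lowest of the 4, exceeded that of 77.0%. Of the 4 genes 0 were called by limma at an adjusted p under 0.05 over all probe sets, a call made for 0.255% of them (0.154% higher and 0.101% lower in aln-1), and nothing is read from this count because the genes were chosen on the same contrast. The spread within a genotype was small, with a median pooled SD of 0.076 over the 4 genes, against 0.17 over the 77 plastid probe sets and 0.22 over all probe sets. With 1 array left out in turn, the difference ranged from 0.61 to 0.71 for psbE, from 0.41 to 0.57 for psbF, from 0.32 to 0.53 for psbL and from 0.43 to 0.55 for psbJ.

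The values of the 4 genes lay close together on every array. Centring each probe set on its own median, and choosing genes with their differences known, both favour this. The closeness is therefore given as a description only. On each array the distance between the highest and the lowest of the 4 values was 0.21 on aln-1 replicate 1, 0.18 on aln-1 replicate 2, 0.11 on Col-0 replicate 1 and 0.24 on Col-0 replicate 2. All 8 aln-1 values lay between 0.12 and 0.40, and all 8 Col-0 values lay between -0.36 and -0.12. psbE, the first gene of the unit, had the largest difference. Its value relative to psbF was 0.18 and 0.098 on the aln-1 arrays, against -0.098 and 0.040 on the Col-0 arrays. Relative to psbL it was 0.078 and 0.18 on the aln-1 arrays, against -0.011 and -0.20 on the Col-0 arrays. Relative to psbJ it was 0.21 and 0.021 on the aln-1 arrays, against -0.11 and -0.0055 on the Col-0 arrays. In each of these 3 cases the genotypes did not overlap, but the margins were no more than 0.089. For the other 3 pairs of genes the relative values of the genotypes overlapped, so psbF, psbL and psbJ could not be put in an order.

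The plastid genes as a whole went the other way on the same arrays. The median of the 77 plastid probe sets was -0.077 and -0.20 on the aln-1 arrays, against 0.25 and 0.076 on the Col-0 arrays. Between the genotypes these array medians differed by -0.30, while the median of the 77 single differences was -0.34. The median of the 4 operon genes was 0.27 and 0.24 on the aln-1 arrays, against -0.25 and -0.32 on the Col-0 arrays. Set beside the plastid median of its own array, the operon was at 0.35 and 0.44 in aln-1 (median of the 4 genes), against -0.49 and -0.39 in Col-0. On this relative scale the difference had a median of 0.79 over the 4 genes, with 0.96 for psbE, 0.79 for psbF, 0.73 for psbL and 0.79 for psbJ. Col-0 replicate 1 had the highest plastid median of the 4 arrays. Without Col-0 replicate 1 the relative difference was 0.78.

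Ranked by difference among the 77 plastid probe sets, psbE was at place 1, psbF at 2, psbJ at 3 and psbL at 5. Place 4 was held by ndhK, a subunit gene of the chloroplast NADH dehydrogenase-like complex, with values of 0.62 and 0.098 on the aln-1 arrays, against -0.098 and -0.16 on the Col-0 arrays. Its difference of 0.49 (SE 0.24) was about as large as that of psbF, with a wider spread between the aln-1 arrays, and it was 0.23 without aln-1 replicate 1. Besides ndhK, atpH of the ATP synthase was the other plastid gene outside the operon whose aln-1 arrays both lay above both Col-0 arrays, with a difference of 0.081 (SE 0.13). In all, 14 plastid probe sets had a difference above 0 and 63 below 0. The lowest was rpoB, a subunit gene of the plastid-encoded RNA polymerase, at -1.74 and -1.63 on the aln-1 arrays, against 1.63 and 1.71 on the Col-0 arrays. rpoB fell by 3.35 on the log2 scale (SE 0.14) with a limma adjusted p of 0.0471, and it was the 1 plastid probe set called in either direction. Without any 1 of the 4 arrays its difference was -3.41 to -3.30 and its limma adjusted p 0.176 to 0.289; in these fits, where 1 genotype has a single array, limma called 0 of all 22746 probe sets, so the lost call says nothing particular about rpoB.

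**Figure D2:**
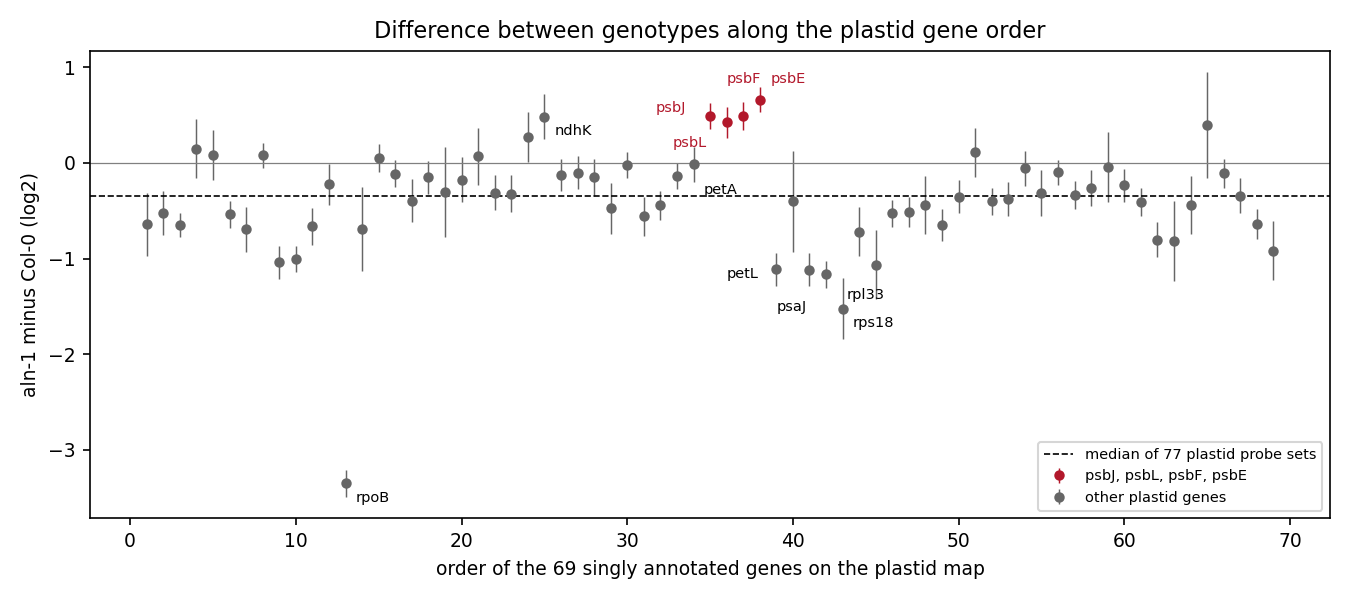
Difference between genotypes, aln-1 minus Col-0 on the log2 scale, for the 69 plastid probe sets with 1 annotated gene, in the order of the genes on the plastid map. Points are differences with limma SE bars, the operon genes are red, and the dashed line is the median of 77 plastid probe sets at -0.34; the 4 operon genes stand together above 0, between petA near 0 and petL at -1.11.

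On the plastid map the difference was lower just outside both ends of the operon. Next to psbE lies petL, a small subunit gene of the cytochrome b6f complex. petL was at -0.73 and -0.45 on the aln-1 arrays, against 0.59 and 0.45 on the Col-0 arrays, a difference of -1.11 (SE 0.17). The signal of psbE relative to petL was 1.13 and 0.75 on the aln-1 arrays, against -0.89 and -0.77 on the Col-0 arrays. This is a difference of 1.78 between the genotypes, or 3.42-fold, across neighbouring genes. The operon was chosen with its high differences known, which favours a step at either end. petL itself was at place 73 among the 77 plastid probe sets. Contrasts with the map neighbours are therefore given as a description only. Beyond petL, psaJ of photosystem I differed by -1.12 (SE 0.17), and the ribosomal protein genes rpl33 and rps18 by -1.16 (SE 0.14) and -1.52 (SE 0.32). For these 3 genes both aln-1 arrays lay below both Col-0 arrays, as in 34.9% of all probe sets. petG, which encodes another small cytochrome b6f subunit and lies between petL and psaJ, was at -0.83 and 0.26 on the aln-1 arrays, against -0.26 and 0.49 on the Col-0 arrays. Its genotypes overlapped, and its difference of -0.40 (SE 0.53) became 0.14 without aln-1 replicate 1. The next gene, rpl20, differed by -0.72 (SE 0.26), and by -0.99 to -0.44 with 1 array left out. Of these 6 genes 0 were called by limma, against 0.255% of all probe sets. An unadjusted limma p under 0.05 was seen for 4, against 23.4%.

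At the other end, next to psbJ, lies petA, the gene of cytochrome f. petA was at -0.087 and 0.087 on the aln-1 arrays, against 0.15 and -0.12 on the Col-0 arrays, and the genotypes overlapped. Its difference was -0.016 (SE 0.18), and it became 0.071 without aln-1 replicate 1 and 0.12 without Col-0 replicate 1. The signal of psbJ relative to petA was 0.28 and 0.19 on the aln-1 arrays, against -0.35 and -0.19 on the Col-0 arrays, a difference of 0.51. Farther on, cemA, which encodes a protein of the chloroplast envelope, differed by -0.13 (SE 0.14), and ycf4, a photosystem I assembly gene, by -0.44 (SE 0.15). psaI of photosystem I differed by -0.56 (SE 0.20) and accD, a subunit gene of acetyl-CoA carboxylase, by -0.020 (SE 0.13). The difference of accD became 0.022 without aln-1 replicate 2 and 0.010 without Col-0 replicate 1. With 1 array left out psaI ranged from -0.76 to -0.36 and cemA from -0.19 to -0.075. Limma called 0 of these 5 genes, against 0.255% of all probe sets. An unadjusted limma p under 0.05 was seen for 0 of them, against 23.4%.

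**Figure D3:**
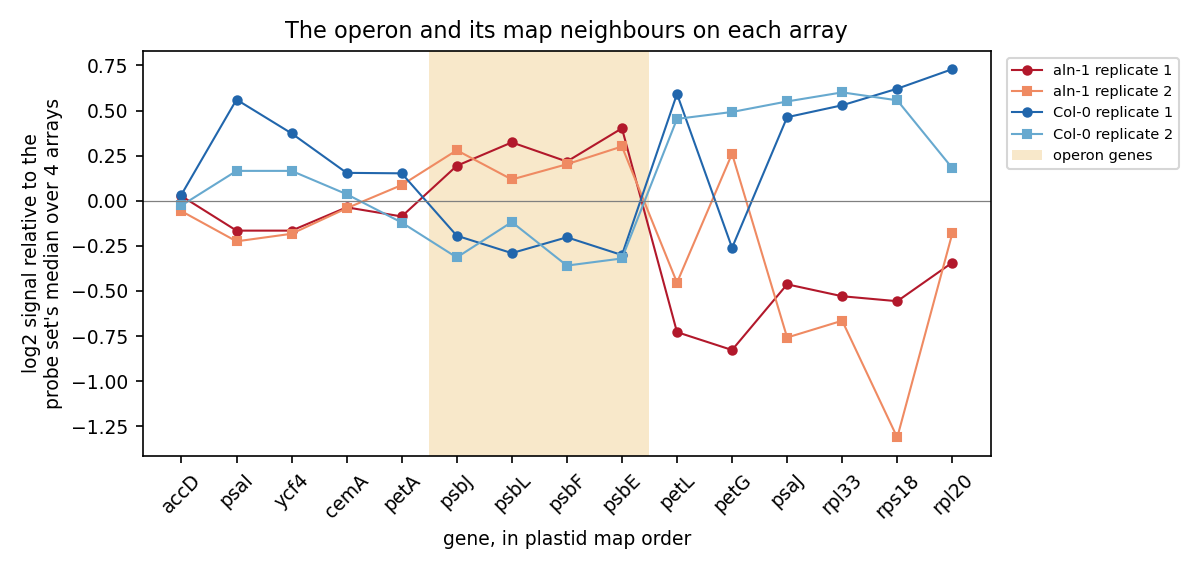
Log2 signal relative to the probe set's own 4-array median for 15 genes in plastid map order, from accD to rpl20, with 1 line per array, aln-1 in reds and Col-0 in blues. The lines of the genotypes lie close together at petA, change places over the 4 shaded operon genes and cross again between psbE and petL.

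Of the 11 other plastid genes of photosystem II, 8 had a difference below 0 and 3 above. The median was -0.40 and the range ran from -0.65 to 0.15. In 6 of the 11 both aln-1 arrays lay below both Col-0 arrays, against 34.9% of all probe sets. In 0 of the 11 both lay above, against 25.2%. psbN was among the 6 by a narrow margin, its highest aln-1 minus its lowest Col-0 value being -0.0087. Limma called 0 of the 11 over all probe sets (0.255% of all were called), and 3 of 11 had an unadjusted p under 0.05, a share near the 23.4% over all probe sets. psbA, the gene of the reaction centre protein D1, was at -0.51 and -0.051 on the aln-1 arrays, against 0.68 and 0.051 on the Col-0 arrays, a difference of -0.64 (SE 0.33). psbD, the gene of the D2 protein to which cytochrome b559 binds early in assembly, differed by -0.11 (SE 0.14). psbC, the gene of the core antenna protein CP43, differed by -0.40 (SE 0.22), and psbZ by -0.15 (SE 0.17). With 1 array left out psbA ranged from -0.96 to -0.33, psbD from -0.17 to -0.050, psbC from -0.63 to -0.16 and psbZ from -0.29 to -0.0024.

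The unit of psbB holds psbT and psbH and, beyond photosystem II, the cytochrome b6f genes petB and petD. Of its genes only petD had a difference above 0, and that sign was not stable. psbB, the gene of the core antenna protein CP47, was at -0.21 and -0.38 on the aln-1 arrays, against 0.25 and 0.21 on the Col-0 arrays, a difference of -0.53 (SE 0.14). psbT and psbH, which encode small subunits, differed by -0.51 (SE 0.16) and -0.65 (SE 0.16). For these 3 genes both aln-1 arrays lay below both Col-0 arrays, as in 34.9% of all probe sets. petB, named after its values were seen to complete the unit, differed by -0.35 (SE 0.17) without overlap, and petD by 0.11 (SE 0.26) with overlap. The petD difference became -0.11 without aln-1 replicate 1 and -0.076 without Col-0 replicate 1. psbN, which lies among them on the opposite strand and acts in assembly, differed by -0.44 (SE 0.30). Its aln-1 arrays were far apart, at -0.0043 and -0.70, and its difference was -0.088 without aln-1 replicate 2. The small subunit genes psbK, psbI and psbM had differences of 0.15 (SE 0.31), 0.083 (SE 0.26) and 0.054 (SE 0.15), with overlapping genotypes. Without aln-1 replicate 1, psbK was at -0.21 and psbI at -0.20, and without Col-0 replicate 2 psbM was at -0.036.

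Across the remaining plastid groups the median difference was -0.56 for 5 photosystem I genes, -0.38 for 6 cytochrome b6f genes and -0.34 for 6 ATP synthase genes. It was -0.12 for 10 NADH dehydrogenase-like genes, -0.53 for 4 RNA polymerase genes and -0.33 for 15 ribosomal protein genes. The differences of all 15 ribosomal protein genes were below 0, from -1.52 to -0.057. No plastid group other than the operon had a median above 0, and this is stated without a test.

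The measured nuclear genes that serve photosystem II and plastid gene expression were mostly lower in signal in aln-1. Of 93 listed genes 14 were measured, meaning that the annotation used assigned them a probe set with 1 gene. It did so for 13513 of the 22746 probe sets. The other listed genes were not analysed, which does not show that the array lacks probe sets for them. Of the 14, 13 had differences below 0. The median was -0.55, against -0.076 over all probe sets. Its size came largely from aln-1 replicate 2, the lower aln-1 array for each of the 14 genes. The median of the 14 was -0.13 on aln-1 replicate 1 and -0.51 on aln-1 replicate 2, against 0.21 and 0.17 on the Col-0 arrays. In 11 of the 14 both aln-1 arrays lay below both Col-0 arrays, against 34.9% of all probe sets, and 12701 of all 22746 probe sets had a difference below 0. Limma called 0 of the 14, against 0.255% of all probe sets, with a lowest limma adjusted p of 0.140. An unadjusted limma p under 0.05 was seen for 3 of 14, no larger a share than the 23.4% over all probe sets. The list was chosen with earlier results of these arrays known.

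Of 16 nuclear photosystem II subunit genes 3 were measured, and limma called 0 of 3, against 0.255% of all probe sets. PSBY differed by -0.57 (SE 0.20), PSB27 by -0.70 (SE 0.35) and PSBW by -0.15 (SE 0.13). PSB27 encodes a lumenal protein that binds photosystem II during assembly and repair, and its aln-1 arrays were at -0.088 and -0.90, against 0.33 and 0.088 for Col-0. With 1 array left out its difference ranged from -1.11 to -0.30. Of 14 antenna genes 3 were measured, all for the minor antenna protein CP29. Limma called 0 of these 3, against 0.255% of all probe sets. LHCB4.1 differed by -0.19 (SE 0.17), LHCB4.2 by 0.091 (SE 0.22) and LHCB4.3 by -1.21 (SE 0.62). The LHCB4.3 value came largely from aln-1 replicate 2, at -1.78 against -0.20 on replicate 1, and the difference was -1.997 when replicate 1 was left out, and -0.42 when replicate 2 was. LHCB4.1 ranged from -0.32 to -0.064 with 1 array left out. The LHCB4.2 difference became -0.082 without aln-1 replicate 1 and -0.069 without Col-0 replicate 2.

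Of 24 assembly and repair genes 4 were measured, and limma called 0 of 4, against 0.255% of all probe sets. LPA1 and LPA2, which act in the assembly of photosystem II, differed by -0.48 (SE 0.15) and -0.53 (SE 0.21). PAM68, an assembly factor of the thylakoid membrane, differed by -0.31 (SE 0.29), and by 0.023 without aln-1 replicate 2. AT1G54500, listed with them, was at -0.21 and -1.11 on the aln-1 arrays, against 0.21 and 0.28 on the Col-0 arrays, a difference of -0.90 (SE 0.37). With 1 array left out it ranged from -1.35 to -0.45, and LPA2 from -0.72 to -0.33.

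LPA66 encodes a protein needed for editing of the psbF RNA. It was at -0.14 and -0.70 on the aln-1 arrays, against 0.14 and 0.31 on the Col-0 arrays. The genotypes did not overlap, and the difference of -0.65 (SE 0.26) was opposite in sign to that of psbF, with a limma adjusted p of 0.260 and a range of -0.93 to -0.37 with 1 array left out. AT3G14330 and AT5G42310, the other measured genes among 18 listed for plastid RNA processing, differed by -0.74 (SE 0.16) and -0.41 (SE 0.20), the second ranging from -0.60 to -0.22 with 1 array left out. The 1 measured gene of 21 listed for plastid transcription, AT5G15700, differed by -0.59 (SE 0.17), and the sigma factor genes of that list were not analysed here. Limma called 0 of these 4 genes, against 0.255% of all probe sets.

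**Figure D4:**
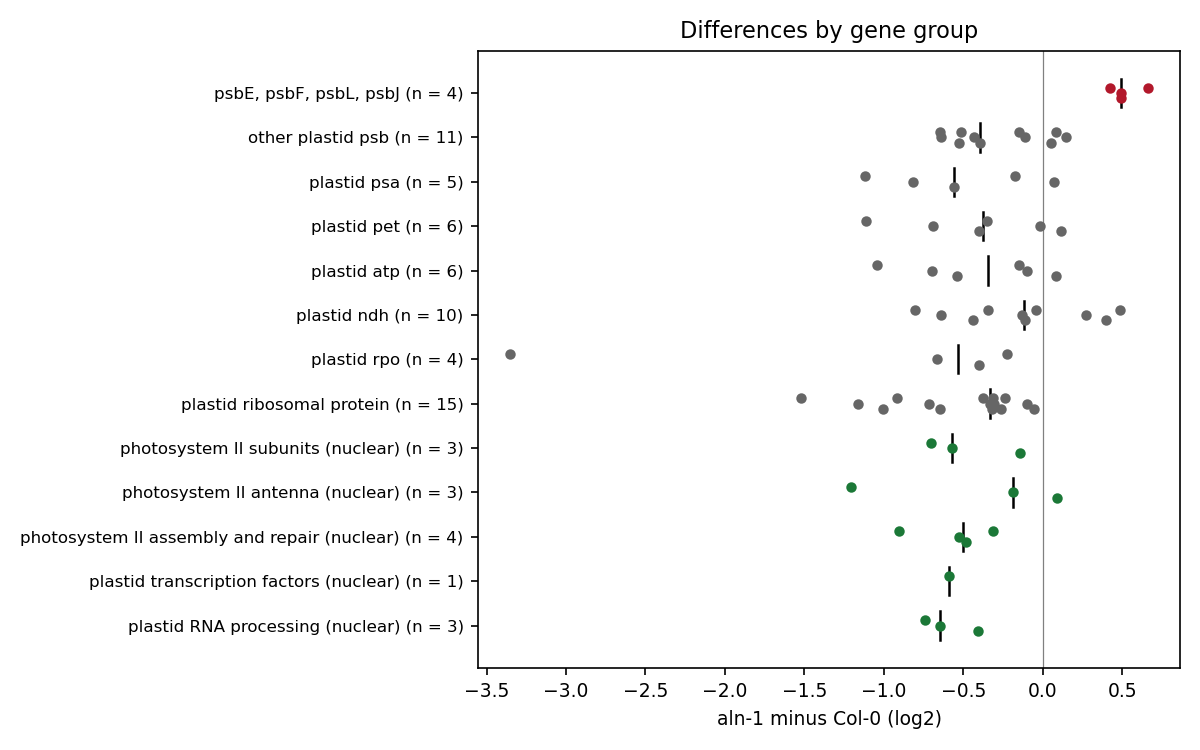
Difference between genotypes, aln-1 minus Col-0 on the log2 scale, by gene group, with 1 point per probe set and a black bar at the group median. The 4 operon genes lie from 0.42 to 0.66, above every group median of the other plastid genes (grey) and of the nuclear genes (green), all of which are below 0; the far left point is rpoB at -3.35.

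The profile of the operon over the 4 arrays, taken as the mean of its 4 genes, was 0.28 and 0.22 in aln-1 and -0.25 and -0.28 in Col-0. Likeness to it was measured as the mean absolute difference over the 4 arrays. The 5 nearest of 65 other plastid genes were ndhK at 0.18, petD at 0.20, atpH at 0.22, ndhJ at 0.23 and psbM at 0.23. The operon genes lay 0.054 to 0.088 from the mean, which they themselves make up, so their nearness to it is partly built in. Of 13367 probe sets of nuclear genes, 220 (1.65%) lay within 0.088, the distance of the farthest operon gene, against 0 of the 65 other plastid genes. At so low a share, 0 of only 65 genes sets nothing apart. The 5 nearest nuclear genes, AT1G13930, CYS1, AT1G18460, AT5G45360 and AT4G29260, lay only 0.011 to 0.021 away, nearer than the operon genes to their own mean. Of the plastid genes named here, petD differed by 0.11 (SE 0.26) and ndhJ by 0.28 (SE 0.26) between the genotypes, with overlapping arrays for both. petD was at -0.11 without aln-1 replicate 1 and at -0.076 without Col-0 replicate 1, and ndhJ was at -0.0012 without aln-1 replicate 1.

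The 3 measured root markers had differences of the same sign as the operon. EXPA7 and EXPA18, expansin genes of root hairs, had differences of 1.43 (SE 0.36) and 1.14 (SE 0.25), and PYK10, a beta-glucosidase gene of roots, one of 0.20 (SE 0.13). For all 3 both aln-1 arrays lay above both Col-0 arrays, as in 25.2% of all probe sets. Centring on the row median then fixes the signs of the values. The range over the 3 markers was 0.075 to 0.86 in aln-1 and -1.27 to -0.075 in Col-0. Their part in the operon values was not tested. The 7 listed leaf markers were not analysed here and levels are not in the values, so the labelled tissue could not be checked against its defining genes.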

How the data were processed

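The deposited table gave log2 values for 22746 probe sets on 4 arrays. Per the submitters' processing notes the authors made the signals with MAS5, with the version not given in the sources used. In all 22746 rows the middle pair of values added up to 0 within 2e-06, so each deposited log2 value is a ratio to the probe set's median over the arrays. The logarithm base, which is not stated, was assumed to be 2. Per the labels' protocols, RNA was labelled with a 3' kit. Such kits start from poly(A) tails, which most plastid RNA lacks, so plastid signals also depend on priming.

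Deposited values were fitted on genotype in limma 3.58.1 under R 4.3.3 (lmFit, eBayes, two-sided, Benjamini-Hochberg over all probe sets, adjusted p threshold 0.05), after tests on simulated data. A permutation test of 2 against 2 arrays cannot go below 0.333 and was not run. Names came from the array annotation and a RefSeq table (TAIR10.1), used for names and gene order; 69 plastid probe sets had 1 gene and 8 had several copies of 1 gene. The deposited files name no build, so no coordinates are given. Members, lists and tests were chosen with earlier results of these data known. Named were the operon genes, map neighbours from accD to rpl20, plastid psb genes, the extreme plastid genes, the extremes of each list and the 5 nearest profiles. Alternatives were array centring, each array left out, a replicate block, a robust prior and other definitions of the plastid level.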

Additional observations from a re-analysis of the deposited data

How the results depend on the processing

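The number of arrays limits all values. The median operon difference of 0.49 was 0.55 with arrays centred on their medians, 0.52 as a mean over the genes and 0.47 to 0.56 with 1 array left out. Relative to the plastid median, 0.79 became 0.75 to 0.87 with 1 array left out and 0.78 to 0.86 with other definitions of the plastid level. The median difference over the plastid probe sets, -0.34, was -0.42 to -0.25 with 1 array left out and -0.29 with arrays centred. The 58 probe sets called by limma became 0 to 0 with 1 array left out (2953 to 5326 at an unadjusted p under 0.05), 0 with the replicate number as a block (4460) and 0 with a robust prior (5084); centring gave 82. The deviations of same-numbered arrays from their genotype means correlated at 0.021 over probe sets, so the numbers were not taken as pairs. The call of rpoB (-3.35) was lost under the block (limma adjusted p 0.190), the robust prior (limma adjusted p 0.0512) and each array left out, settings under which no probe set was called. Over 53 named genes and 7 alternatives, 349 of 371 values kept direction and side of the threshold, 6 lost the call and 16 turned. None of the 16 was of an operon gene. Leaving out an array could not turn an operon gene, since both its aln-1 arrays lay above both Col-0 arrays. The block and the robust prior leave each difference unchanged, so neither could turn any gene. With 1 array left out, accD ranged from -0.062 to 0.022, petA from -0.15 to 0.12, petG from -0.94 to 0.14, psbK from -0.21 to 0.51, psbI from -0.20 to 0.37, psbM from -0.036 to 0.15, LHCB4.2 from -0.082 to 0.26, PAM68 from -0.64 to 0.023, petD from -0.11 to 0.33 and ndhJ from -0.0012 to 0.55. With arrays centred, accD was at 0.036 and petA at 0.041.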
